A study of Homo sapiens with 4 samples.

Results

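The unfolded protein and ATF4 stress genes are a set of 36 genes. Membership is by gene name and the rule holds no threshold on measured values, but the names were chosen with earlier results of these data known. All 36 were found in the table of 20329 genes analysed, and 35 of them passed a filter on low values together with 13928 genes in all (a mean of at least 1 FPKM, fragments per kilobase of transcript, relative to all mapped fragments). STC2 was the member below the filter. Messenger RNA was sequenced from BM1 and LM2, derivatives of the triple-negative breast cancer line MDA-MB-231 that the labels tie to metastasis to bone (BM1) and to lung (LM2). In each line a control library came from cells carrying a non-specific shRNA and a knockdown library from cells carrying an shRNA against hnRNPM, an RNA-binding protein that acts in splicing. All 4 groups were cultures infected with lentivirus to express their shRNA stably, and each group had 1 library. The sources used here do not give the shRNA sequences or their number, and each line is a single derivative of 1 parental line.

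Proteins that enter the endoplasmic reticulum (ER) fold there with the help of chaperones, and misfolded ones are sent back to the cytosol for degradation. When folding falls behind, the sensors IRE1 (encoded by ERN1), ATF6 and PERK (encoded by EIF2AK3) start the unfolded protein response. IRE1 splices XBP1 mRNA into a form that encodes an active transcription factor, cleavage frees an active ATF6 fragment, and PERK phosphorylates eIF2alpha, which lowers general translation and raises translation of ATF4. ATF4 is also induced through other kinases of eIF2alpha, such as GCN2 under amino acid shortage, and it drives genes for amino acid synthesis, amino acid transport and stress feedback. The table gives gene levels of mRNA, so splicing of XBP1, cleavage of ATF6 and translation of ATF4 were not measured.

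As inferred from the spacing of low FPKM values, the BM1 and LM2 controls held 31200000 and 41500000 fragments and the corresponding knockdowns 22800000 and 27300000. Both knockdown libraries were thus shallower than both controls, so depth ran together with treatment. HNRNPM, the target, went in BM1 from 171 to 28.4 FPKM and in LM2 from 132 to 20.3, a change of -2.59 ± 0.25 (log2, SE) with a limma adjusted p of 0.00318. The luminal markers, without FOXA1, which was not listed, summed to 563 and 621 FPKM in the BM1 and LM2 controls. The corresponding knockdowns were at 1440 and 1410 FPKM. These sums were nearly all keratin. KRT8 was at 398 and 485 FPKM in these controls and 1181 and 1083 FPKM after knockdown. KRT18 was at 158 and 129 FPKM, then 248 and 319 FPKM. GATA3, CDH1 and EPCAM were at most 4.59 FPKM. Among these low genes GATA3 was lower in both knockdowns, while CDH1 and EPCAM were higher. The summed mesenchymal markers of the parental line fell with knockdown in BM1 (3082 against 1908 FPKM) but rose in LM2 (2364 against 2674 FPKM). VIM was the largest part, at 2354 and 1160 FPKM (BM1 control, knockdown) and 1575 and 1795 FPKM (LM2 control, knockdown). CAV1 had higher values in both knockdowns and AXL lower ones, so this list had no common direction. Fibroblast markers summed to 3.34 and 14.8 FPKM in the BM1 control and knockdown and to 29.9 and 78.8 FPKM in LM2. COL1A1 made up 1.94, 11.1, 29.2 and 74.2 FPKM of these sums. CD68 at 2.04 to 23.5 FPKM and VWF at up to 0.163 FPKM were the immune and endothelial markers analysed, and ERBB2 lay between 13.5 and 21.9 FPKM. Genes of the mitochondrial genome took 8.80% to 12.8% of the FPKM sum, more in both knockdown libraries than in the controls. The part of these shifts in the results on the stress genes was not tested. In bulk RNA, fewer cells that express a gene and less of its RNA per cell cannot be told apart.

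Short stretches of promoter are shown first for the members whose windows hold a known element, since these elements are known binding sites of factors of the response. The windows run from 250 bases before to 50 bases after a RefSeq start (GRCh38.p14), and 33 of the 36 members had one, all but PDIA3, PSPH and SHMT2. Windows were searched on both strands for the ER stress element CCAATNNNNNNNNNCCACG, which binds ATF6 together with NF-Y, and for ERSE-II, ATTGGNCCACG. They were also searched for the core TGACGTGG of the unfolded protein response element and for TGATGNAA, the composite element of ATF4 and C/EBP factors. In the lines below the fixed letters of each motif are in capitals and each stretch is read on the strand that carries the motif.
HSPA5, ER stress element, minus strand, chr9:125241379-125241421: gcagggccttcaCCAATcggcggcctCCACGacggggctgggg
HSP90B1, first ER stress element, plus strand, chr12:103930204-103930246: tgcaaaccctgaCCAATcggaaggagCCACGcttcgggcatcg
HSP90B1, other ER stress element, minus strand, chr12:103930309-103930351: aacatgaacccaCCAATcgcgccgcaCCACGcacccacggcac
CALR, ER stress element, minus strand, chr19:12938372-12938414: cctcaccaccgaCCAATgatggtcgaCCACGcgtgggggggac
XBP1, ER stress element, minus strand, chr22:28800591-28800633: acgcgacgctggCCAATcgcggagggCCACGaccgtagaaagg
HYOU1, ERSE-II, plus strand, chr11:119057262-119057296: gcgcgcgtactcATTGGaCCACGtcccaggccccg
HERPUD1, ERSE-II, plus strand, chr16:56932013-56932047: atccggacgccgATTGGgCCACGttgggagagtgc
CHAC1, ATF4 composite element, minus strand, chr15:40953250-40953281: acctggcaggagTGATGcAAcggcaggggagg
ASNS, ATF4 composite element, minus strand, chr7:97872457-97872488: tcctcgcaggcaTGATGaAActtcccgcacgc

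The full ER stress element was found in 7 of the 33 members with a window (21.2%), namely HSPA5, HSP90B1, CALR, CANX, PDIA6, CRELD2 and XBP1, and in 0.0916% of all 27305 genes with a window. ERSE-II was found in HYOU1, SDF2L1 and HERPUD1, 9.09% of the members with a window against 0.0696% of all genes with one. The core of the unfolded protein response element was found in HYOU1, where it overlaps an ERSE-II, 3.03% of the members against 0.927% of all genes. TGATGNAA was found in HERPUD1, CHAC1 and ASNS, 9.09% of the members against 4.46% of all genes. Among ER chaperones the full element was in 6 of 13 genes with a window, while its exact letters were in none of the 7 members around ATF4 and CHOP. The window of DDIT3, which encodes CHOP, holds CCAAT and CCACT with the same spacer of 9 bases. It thus misses the motif by the last letter, and such near matches were not counted. These matches are letters in a window and not measured binding. No match to any of the motifs was found in the windows of EIF2AK3 and PHGDH, which says only that these letters are not in that stretch.

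**Figure D1:**
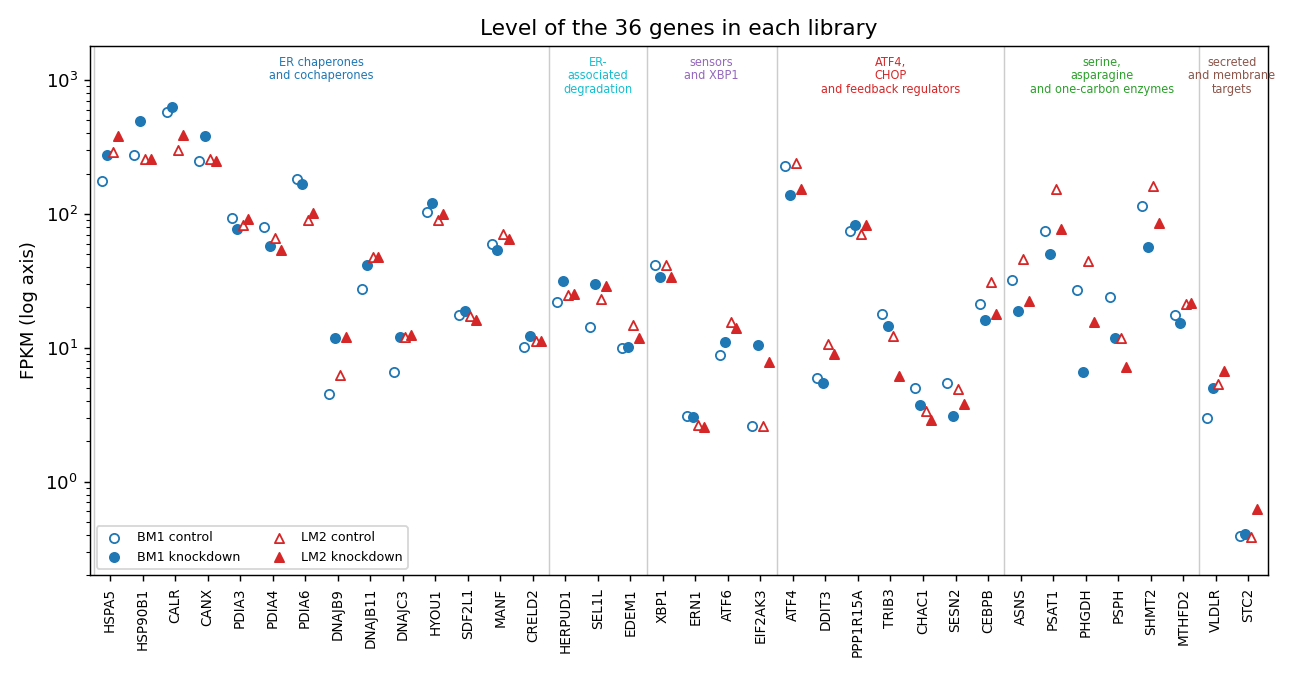
FPKM of the 36 genes (log axis) in the 4 libraries, ordered by role, with open symbols for controls and filled symbols for knockdowns (circles BM1, triangles LM2). The ER chaperones reach 625 FPKM in CALR, while the sensor genes stay below 16 FPKM and STC2 below 1 FPKM.

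Levels per length differed widely between the members, as the plot of levels by library shows. The most abundant were the ER lectin chaperone gene CALR, from 302 to 625 FPKM, the HSP90 paralog of the ER, HSP90B1, from 256 to 495 FPKM, and the ER HSP70 gene HSPA5 (BiP), from 176 to 384 FPKM. ATF4 itself lay between 139 and 239 FPKM, above most of its targets. The 3 sensor genes ERN1, ATF6 and EIF2AK3 lay between 2.56 and 15.5 FPKM. STC2, a secreted glycoprotein gene, was at 0.393 and 0.404 FPKM in BM1, against 0.385 and 0.626 in LM2.

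The knockdown was compared with control over both lines on the log2(FPKM + 1) scale, on which changes of low genes are understated. Of the 35 members tested, EIF2AK3 rose and PHGDH fell at a limma adjusted p below 0.05, where adjustment was over all genes tested. Among all genes 2.71% were called higher and 2.76% lower, so 1 member in each direction is near the background. At an unadjusted p below 0.05 there were 9 members of 35 and 3465 of 13928 genes (24.9%). Both knockdown values lay above both control values in 5 members (21.8% of all genes) and below them in 8 members (22.6% of all genes). The median of the members was -0.033 in BM1 and -0.035 in LM2, beside 0.0047 and -0.038 over all genes tested, so the median of the set was close to that of all genes. The roles within it differed, from a median of 0.23 (BM1) and 0.0096 (LM2) for the ER chaperones to -0.85 and -0.95 for the enzymes of serine, asparagine and one-carbon metabolism.

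**Figure D2:**
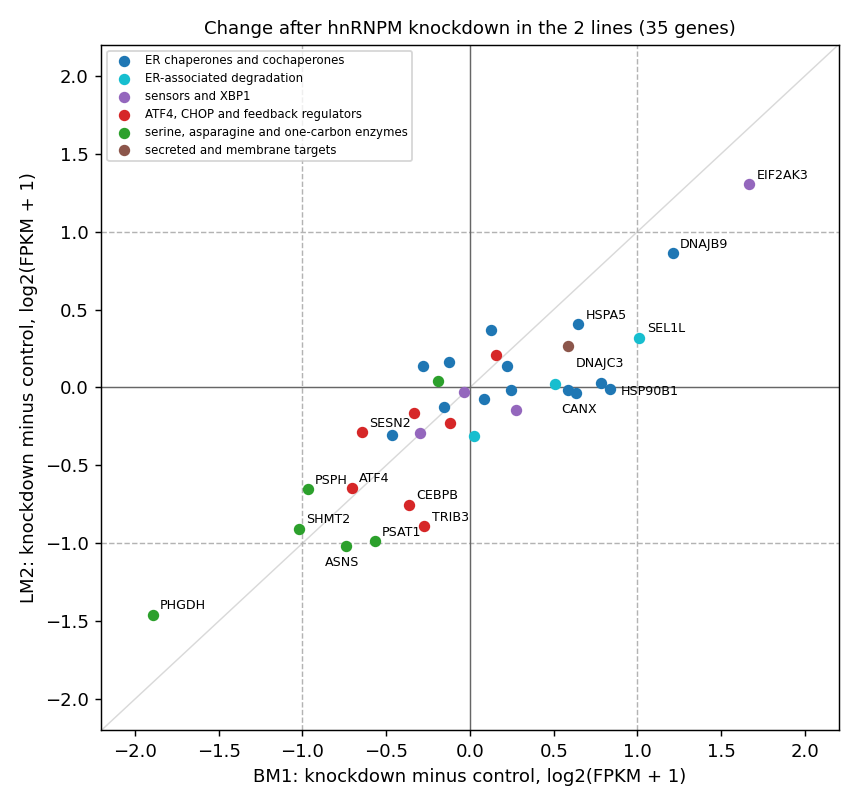
Knockdown minus control in BM1 (horizontal) and LM2 (vertical), in log2(FPKM + 1), for the 35 members that passed the filter, with 1 point per gene coloured by role and dashed lines at 2-fold. EIF2AK3 stands alone at the upper right and PHGDH at the lower left, while HSP90B1, DNAJC3 and CANX lie to the right near a change of 0 in LM2.

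Changes inside a single line rest on 1 control and 1 knockdown library and carry no test. They were read against a fixed rule of 2-fold on the log2(FPKM + 1) scale. In BM1, EIF2AK3, DNAJB9 and SEL1L were at least 2-fold higher in the knockdown (3 of 35 members, 10.1% of all genes) and PHGDH and SHMT2 at least 2-fold lower (2 members, 6.2% of all genes). By plain FPKM PSPH was also past 2-fold lower in BM1, at 49.1% of control. In LM2, EIF2AK3 was at least 2-fold higher (3.83% of all genes) and PHGDH and ASNS at least 2-fold lower (4.24% of all genes). The members' values had opposite signs in the lines for 10 of 35 genes (28.6%), beside 30.9% of all genes tested. They were higher in both knockdowns for 10 members (33% of all genes) and lower in both for 15 (36.2% of all genes).

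EIF2AK3, which encodes PERK (chromosome 2, 88856259 to 88927094, minus strand, GRCh37 as the table gives it), was the sensor gene that moved. Its level was 2.60 FPKM in both control libraries, 10.4 FPKM in the BM1 knockdown and 7.89 FPKM in the LM2 knockdown. Both knockdown values were thus well above controls that did not differ between the lines. The change was 4.01-fold in BM1 and 3.04-fold in LM2, and over both lines it was 1.49 ± 0.26 (log2, SE) with a limma adjusted p of 0.0197. The call was lost with a pseudocount of 0.1 (limma adjusted p of 0.0816), in fits with no filter, no pairing of libraries or quantile normalization, and when any library was left out. EIF2AK3 shares 18870 bases of its locus with AC104134.2 on the opposite strand, which went in BM1 from 0.916 to 5.66 FPKM and in LM2 from 1.28 to 4.08 (limma adjusted p of 0.0228). The sources used here do not say whether reads were counted by strand, so the contributions of these overlapping genes cannot be told apart.

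The other sensor genes and XBP1 were not called. ERN1, which encodes IRE1, went from 3.11 FPKM in the BM1 control to 3.02 in its knockdown, and from 2.64 to 2.56 in LM2. ATF6 measured 8.88 FPKM in BM1 control cells and 11 after knockdown, with 15.5 and 14.0 for the same pair in LM2, so its values moved in opposite directions in the lines. XBP1 was at 41.6 FPKM in the BM1 control and 41.8 FPKM in the LM2 control, and at 33.6 and 33.9 FPKM in the knockdowns. These XBP1 values were nearly the same in both lines within each treatment, with a difference of -0.30 ± 0.25 between treatments (log2, SE, limma adjusted p of 0.505). Removing the trend of changes with GC content and transcript length, an alternative chosen after seeing the data, took the XBP1 value in BM1 from -0.30 to -0.62.

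**Figure D3:**
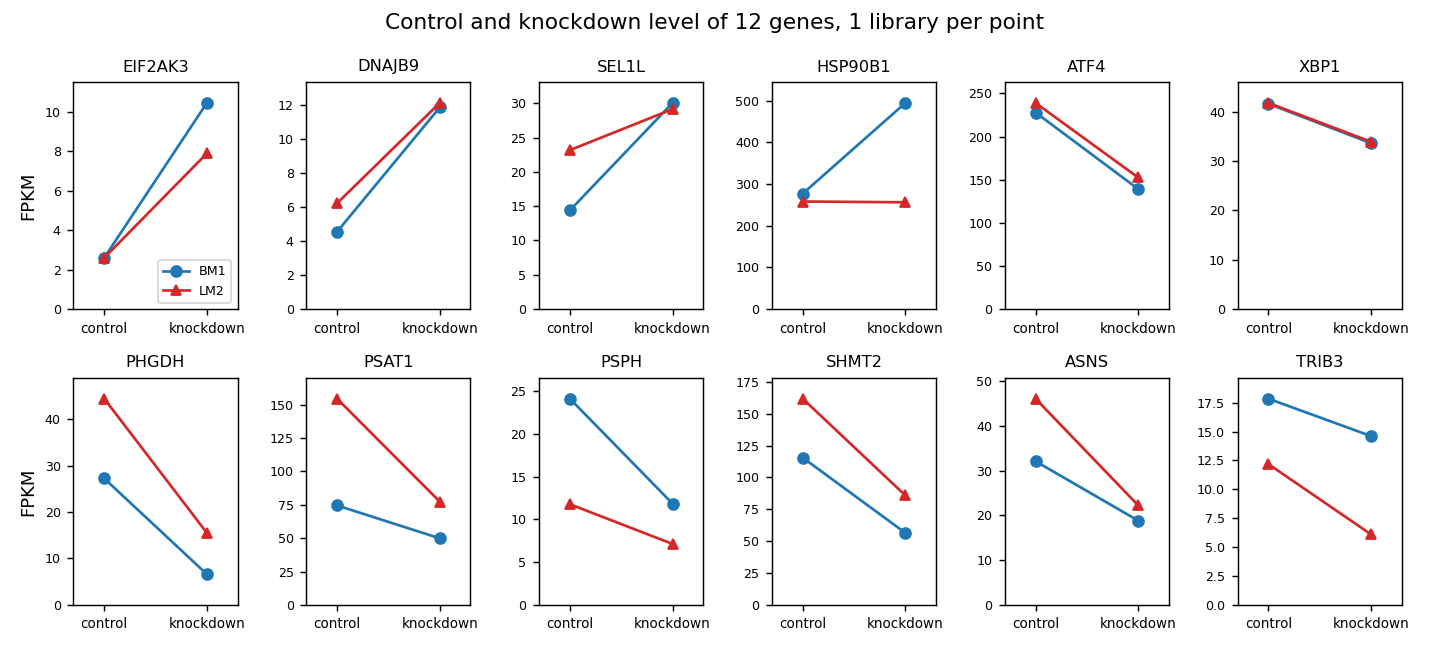
FPKM in control and knockdown for 12 members, each panel with its own axis from 0, a line joining the 2 libraries of BM1 (circles) or LM2 (triangles). EIF2AK3 and DNAJB9 slope up in both lines, HSP90B1 slopes up in BM1 alone, and the serine pathway genes slope down in both lines from different control levels.

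Among the 14 ER chaperones and cochaperones none was called over both lines, and 1 (DNAJB9) had an unadjusted p below 0.05 (24.9% of all genes). In BM1 10 of the 14 had higher values in the knockdown and in LM2 7 of 14, beside 7002 and 6481 of the 13928 genes tested. The signs were opposite in the lines for 7 of them (30.9% of all genes). DNAJB9, a cochaperone of BiP known as a target of XBP1, was at 4.54 and 11.8 FPKM in BM1, against 6.21 and 12.1 in LM2. The knockdown values of DNAJB9 were close to each other and above both controls, with a difference of 1.04 ± 0.26 (log2, SE, limma adjusted p of 0.0534). Without the trend with GC content and length its log2 value went from 1.21 to 0.83 in BM1 and from 0.86 to 0.79 in LM2. DNAJB9 overlaps THAP5 by 183 bases on the opposite strand, and THAP5 went from 5.0 FPKM in the BM1 control to 10.1 in its knockdown, and from 5.47 to 9.30 in LM2.

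HSPA5, the central ER chaperone and repressor of the sensors, measured 176 FPKM in BM1 control cells and 276 after knockdown, with 290 and 384 for the same pair in LM2. It was higher in the knockdown of each line, by 0.65 and 0.40 on the log2 scale, but the LM2 control exceeded the BM1 knockdown (limma adjusted p of 0.242). HSP90B1 was at 277 and 495 FPKM in BM1, against 258 and 256 in LM2. The lectin chaperone gene CANX likewise went from 248 FPKM in the BM1 control to 384 in its knockdown, and from 257 to 251 in LM2. In both genes the BM1 knockdown stood above 3 libraries with nearly equal values, and the difference between the lines' responses was not tested.

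The DnaJ cochaperone genes DNAJC3, an inhibitor of PERK, and DNAJB11 started lower in the BM1 control than in the other libraries. DNAJC3 measured 6.61 FPKM in BM1 control cells and 12.1 after knockdown, with 12.1 and 12.4 for the same pair in LM2. DNAJB11 was at 27.5 and 41.7 FPKM in BM1, against 48.0 and 47.4 in LM2. Without the trend with GC content and length their BM1 values of 0.78 and 0.58 (log2) became 0.23 and -0.0055. Those of HSP90B1 and CANX went from 0.83 to 0.49 and from 0.63 to 0.25. CALR, in contrast, went from 573 FPKM in the BM1 control to 625 in its knockdown, and from 302 to 391 in LM2, and its BM1 value of 0.13 became 0.43.

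The protein disulfide isomerases, which form and rearrange disulfide bonds, had values with no common direction. PDIA4 measured 79.3 FPKM in BM1 control cells and 57.1 after knockdown, with 66.3 and 53.3 for the same pair in LM2, with both knockdowns below both controls (limma adjusted p of 0.376). PDIA3 lay between 76.7 and 93.4 FPKM and PDIA6 at 181 and 166 FPKM in BM1, against 90.2 and 101 in LM2. The remaining chaperone members were HYOU1, a nucleotide exchange factor, SDF2L1, the secreted stress factor MANF and CRELD2. All 4 differed from control by between -0.16 (MANF in BM1) and 0.24 (CRELD2 in BM1) on the log2 scale, at 90.1 to 121 FPKM, 16.3 to 18.8 FPKM, 53.6 to 70.3 FPKM and 10.2 to 12.3 FPKM. PDIA3 also has listed pseudogenes, PDIA3P1 and PDIA3P2, at up to 7.38 and 4.21 FPKM, which may share its reads.

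The 3 members of ER-associated degradation were not called over both lines. SEL1L, the partner of the ubiquitin ligase HRD1, was at 14.4 and 30.0 FPKM in BM1, against 23.2 and 29.1 in LM2. Both SEL1L knockdown values exceeded both controls, with a difference of 0.67 ± 0.28 (log2, SE, limma adjusted p of 0.181). Its BM1 value of 1.01 on the log2 scale was 0.37 without the trend with GC content and length. HERPUD1, a scaffold of the degradation complex, went from 21.9 FPKM in the BM1 control to 31.6 in its knockdown, and from 24.9 to 25.3 in LM2. EDEM1, which marks misfolded glycoproteins by trimming their mannose, measured 9.92 FPKM in BM1 control cells and 10.1 after knockdown, with 14.8 and 11.8 for the same pair in LM2. Thus SEL1L and HERPUD1 had their larger difference in BM1, and EDEM1 differed mainly in LM2 and toward lower values.

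Among the 7 members around ATF4 and CHOP none was called, and 6 of 7 had lower values in the knockdown of both lines (36.2% of all genes). ATF4 (chromosome 22, 39915700 to 39918690, plus strand, GRCh37) was at 228 and 139 FPKM in BM1, against 239 and 153 in LM2. Both knockdown values lay well below both controls, 61.1% of control in BM1 and 63.8% in LM2, with a difference of -0.68 ± 0.25 (log2, SE, limma adjusted p of 0.144). DDIT3, which encodes the pro-apoptotic factor CHOP, went from 5.97 FPKM in the BM1 control to 5.42 in its knockdown, and from 10.6 to 8.91 in LM2. DDIT3 shares 982 bases with MARS on the opposite strand, which was at 61.6 to 79.8 FPKM, so part of the DDIT3 reads cannot be told apart from that much more abundant gene if strand was not used.

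The feedback regulators had differences of unequal size in the lines. TRIB3, a pseudokinase that restrains ATF4 and CHOP, measured 17.8 FPKM in BM1 control cells and 14.6 after knockdown, with 12.2 and 6.10 for the same pair in LM2. CEBPB, a C/EBP factor that pairs with ATF4, was at 21.1 and 16.2 FPKM in BM1, against 30.9 and 18 in LM2. Both had the larger difference in LM2 (-0.89 and -0.75 on the log2 scale, against -0.27 and -0.37 in BM1). SESN2, an inhibitor of mTORC1 signalling, went the other way, with 5.44 and 3.11 FPKM in BM1 and 4.88 and 3.81 FPKM in LM2. CHAC1, which degrades glutathione, went from 4.98 FPKM in the BM1 control to 3.74 in its knockdown, and from 3.39 to 2.91 in LM2. The exception in direction was PPP1R15A (GADD34), which directs eIF2alpha dephosphorylation, at 74.0 and 82.6 FPKM in BM1, against 70.8 and 82.1 in LM2. Without the trend with GC content and length the median of the 7 genes went from -0.34 to -0.10 in BM1 and from -0.29 to -0.15 in LM2.

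The enzymes of serine, asparagine and one-carbon metabolism, known targets of ATF4, had the largest shift of any role. All 6 were lower in the BM1 knockdown and 5 of 6 in LM2, beside 6926 and 7447 of the 13928 genes tested. In limma 5 of 6 had an unadjusted p below 0.05 (24.9% of all genes), and 1 was called (2.76% of all genes called lower). PHGDH, the first enzyme of serine synthesis (chromosome 1, 120202421 to 120286838, plus strand, GRCh37), measured 27.2 FPKM in BM1 control cells and 6.6 after knockdown, with 44.4 and 15.5 for the same pair in LM2. Both knockdown values were below both controls, at 24.2% of control in BM1 and 34.9% in LM2. PHGDH fell by 1.68 on the log2 scale over both lines (SE 0.26, limma adjusted p of 0.0143), and no other listed gene overlaps it. The call was lost under the same alternatives as that of EIF2AK3, with a limma adjusted p of 0.0826 for a pseudocount of 0.1, but the size kept to -1.62 and -1.37 in the lines without the trend with GC content and length.

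The next steps of serine synthesis had lower values as well but were not called. PSAT1, the aminotransferase, was at 74.5 and 49.9 FPKM in BM1, against 155 and 77.4 in LM2, so the LM2 knockdown still exceeded the BM1 control. PSPH, the phosphatase of the last step, went from 24.1 FPKM in the BM1 control to 11.9 in its knockdown, and from 11.8 to 7.13 in LM2. The limma adjusted p was 0.116 for PSAT1 and 0.101 for PSPH. PSPH has a listed pseudogene, PSPHP1, at 6.37 to 8.95 FPKM, and reads may have been split between them, so its level is uncertain.

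SHMT2, the mitochondrial enzyme that takes the carbon from serine, measured 115 FPKM in BM1 control cells and 56.4 after knockdown, with 162 and 85.9 for the same pair in LM2. Its difference was -0.96 ± 0.25 (log2, SE, limma adjusted p of 0.0613), nearly equal in the lines. ASNS, asparagine synthetase, was at 32.1 and 18.8 FPKM in BM1, against 46.0 and 22.2 in LM2, a difference of -0.88 ± 0.26 (limma adjusted p of 0.0821). Both knockdown values lay below both controls in SHMT2 and in ASNS. MTHFD2, the next mitochondrial folate enzyme, differed less between treatments than SHMT2, with 17.6 and 15.3 FPKM in BM1 and 21.1 and 21.7 FPKM in LM2. Without the trend with GC content and length the MTHFD2 value in BM1 went from -0.19 to -0.60 (log2), beside -0.76 for SHMT2. In LM2 the values without the trend were -0.014 for MTHFD2 and -0.79 for SHMT2, so in BM1 this contrast depends on the processing. VLDLR, a lipoprotein receptor gene induced by ATF4, had higher values in the knockdowns, at 3.0 and 5.0 FPKM in BM1, against 5.38 and 6.66 in LM2 (limma adjusted p of 0.342). Without the trend its log2 value went from 0.59 to 0.14 in BM1 and from 0.26 to 0.19 in LM2.

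The changes were also set beside the promoter elements shown above. The 10 members with an ER stress element or ERSE-II had a median of 0.23 in BM1 and 0.0064 in LM2 on the log2 scale. Of them 0 were at least 2-fold higher in the knockdown of either line, beside 10.1% of all genes in BM1 and 3.83% in LM2. The 22 tested members with a window and neither element had medians of -0.14 and -0.15, with 3 and 1 at least 2-fold higher. All 7 members around ATF4 and CHOP and the 4 serine, asparagine and one-carbon enzymes with a window held neither element in the exact letters searched, with the near match in DDIT3 not counted. Element and role therefore cannot be told apart in this split. EIF2AK3, DNAJB9 and SEL1L, the 3 with the largest values upward in BM1, lay outside the group with these letters in the window. In LM2, however, HSPA5 and CALR, which hold an ER stress element, were at 0.40 and 0.37, above SEL1L at 0.32. Without the trend with GC content and length SEL1L was at 0.37 in BM1, below HERPUD1 (0.66), HSPA5 (0.63), CRELD2 (0.54) and HSP90B1 (0.49), so this order depends on the line and on the processing. ASNS and CHAC1, which hold the ATF4 composite letters, differed by -0.88 and -0.25 over both lines.

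Other genes of the pathways were then examined from lists of ER folding, degradation, sensor and ATF4 target genes that are not members. Of 80 such genes, 76 were tested, and 1 was called higher and 1 lower over both lines in limma, again near the 2.71% and 2.76% of all genes. Their medians were 0.017 in BM1 and 0.011 in LM2. SLC38A2, a transporter of neutral amino acids and an ATF4 target, rose in BM1 from 76.3 to 282 FPKM and in LM2 from 85.2 to 156 (1.37 ± 0.30, log2, SE, limma adjusted p of 0.0396). PCK2, the mitochondrial phosphoenolpyruvate carboxykinase and another ATF4 target, fell in BM1 from 12.6 to 4.66 FPKM and in LM2 from 22.6 to 4.89 (-1.64 ± 0.28, limma adjusted p of 0.0185). So a transporter and an enzyme of the same target list moved in opposite directions. Both calls were lost with a pseudocount of 0.1, with no filter, with quantile normalization, when libraries were not paired and when any library was left out. That of SLC38A2 was also lost with a pseudocount of 0.5 and without the trend with GC content and length.

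**Figure D4:**
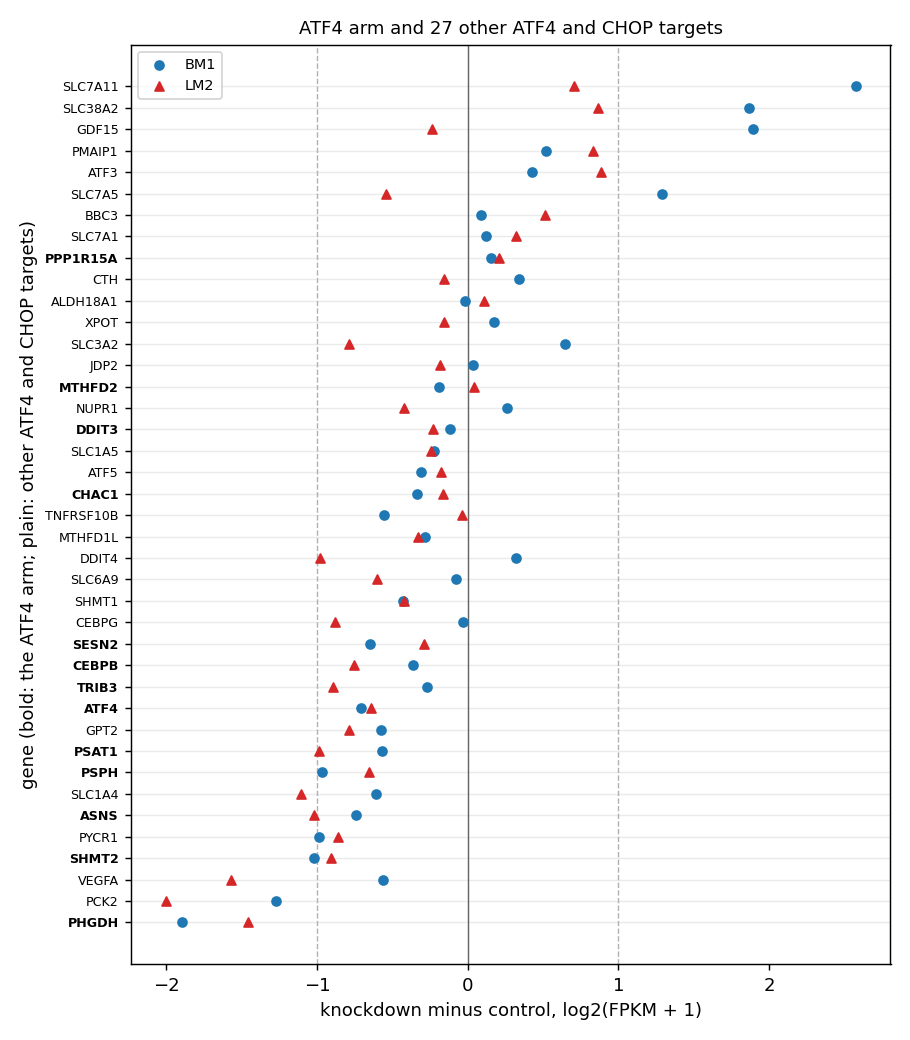
Knockdown minus control in log2(FPKM + 1) for 13 members (bold) and 27 other ATF4 and CHOP targets (plain), sorted by the average over the lines, with circles for BM1, triangles for LM2 and dashed lines at 2-fold. PHGDH and PCK2 are lowest and SLC7A11 and SLC38A2 highest, so genes of this list lie at both ends.

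Within the 27 other ATF4 and CHOP targets tested, 12 had lower values in both lines, 6 higher in both and 9 opposite signs, beside 36.2%, 33% and 30.9% of all genes. Of the 22 other ER folding and translocation genes none was called over both lines, and the largest average values were -0.92 for SEC61A1, the channel subunit of the translocon, and -0.92 for TXNDC5, a disulfide isomerase. Of the 16 other ER-associated degradation genes none was called, with SYVN1, the ligase HRD1, at 17.9 and 39.7 FPKM in BM1, against 11.1 and 21.2 in LM2 (0.99, limma adjusted p of 0.0584). EDEM3 was at 0.93 over both lines. The largest average values among 11 other sensors and cleavage enzymes were 0.74 for MBTPS2, a protease that cleaves ATF6, and -0.63 for EIF2AK4, which encodes GCN2, none called. At an unadjusted p below 0.05 these 3 lists held 5 of 22, 6 of 16 and 3 of 11 genes, beside 24.9% of all genes.

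Stress genes of other compartments were tested as well. Among 11 cytosolic heat shock genes BAG3, a cochaperone of HSP70, fell in BM1 from 78.8 to 31.2 FPKM and in LM2 from 58.4 to 24.1 (-1.27 ± 0.25, log2, SE, limma adjusted p of 0.0274), and 7 of the 11 had opposite signs in the lines (30.9% of all genes). Of the 6 mitochondrial stress genes none was called or had an unadjusted p below 0.05, and HSPD1 and TRAP1 had the largest average values, 0.51 and -0.23. BAG3 too was no longer called with a pseudocount of 0.1, with no filter, with quantile normalization, without pairing or on any 3 libraries.

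LM2 was compared with BM1 over both treatments in the same limma fit. Of the 35 members 0 were called, beside 2.31% of all genes higher and 2.04% lower in LM2, and 8 members had an unadjusted p below 0.05 (22.4% of all genes). LM2 was above BM1 in all 4 comparisons of libraries for 10 members (19.4% of all genes) and below for 9 (21.6% of all genes). Between the controls PSAT1 was at least 2-fold higher in LM2 (1 of 35 members, 6.98% of all genes) and PDIA6 at least 2-fold lower (5.26% of all genes). This rule again used the log2(FPKM + 1) scale. By plain FPKM PSPH was also past 2-fold lower in the LM2 control, at 0.488 of the BM1 control. Between the knockdowns PHGDH was at least 2-fold higher (4.41% of all genes) and TRIB3 at least 2-fold lower (4.63% of all genes). These comparisons use the same libraries as the knockdown comparisons.

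**Figure D5:**
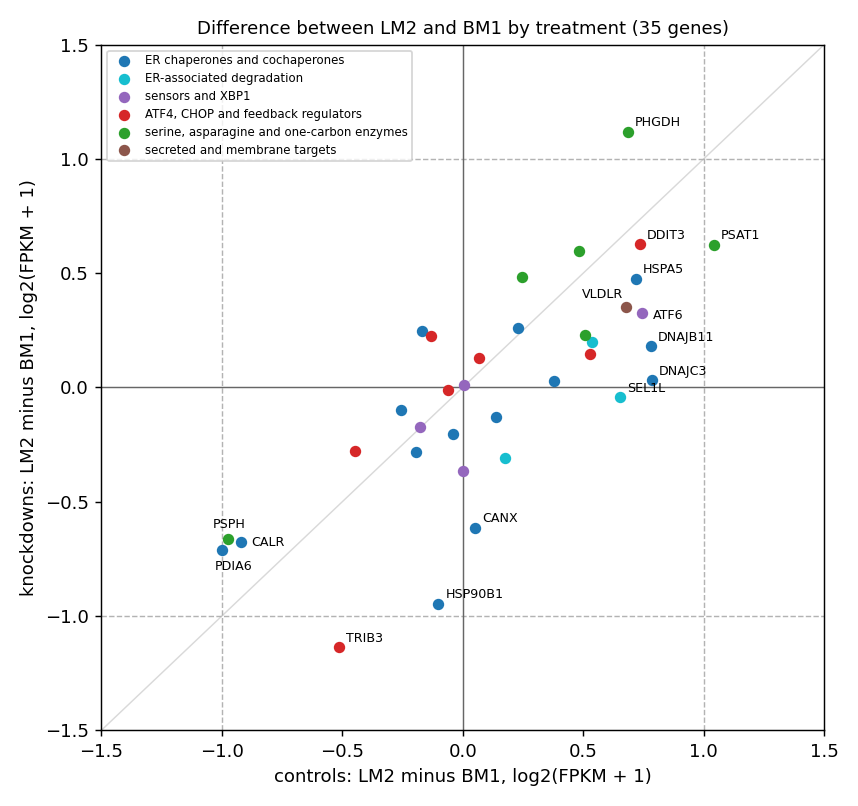
LM2 minus BM1 in controls (horizontal) and in knockdowns (vertical), in log2(FPKM + 1), for the 35 members that passed the filter, 1 point per gene coloured by role, dashed lines at 2-fold. PHGDH, PSAT1 and DDIT3 lie to the upper right, PDIA6, CALR, PSPH and TRIB3 to the lower left, and HSP90B1 and CANX near 0 in controls and below it in knockdowns.

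The serine pathway did not differ between the lines as a block. PHGDH and PSAT1 had higher values in LM2 under both treatments, by 0.69 and 1.12 for PHGDH and by 1.04 and 0.62 for PSAT1 (log2, controls and knockdowns, limma adjusted p of 0.0908 and 0.107 over both). PSPH, the enzyme after them, had lower values in LM2, by -0.98 and -0.66 (limma adjusted p of 0.108). DDIT3 was higher in LM2 by 0.74 and 0.63 (limma adjusted p of 0.160), while its feedback partner TRIB3 was lower by -0.52 and -1.14 (limma adjusted p of 0.121). The median of the 6 enzymes was 0.50 in controls and 0.54 in knockdowns, beside 0.029 and -0.056 over all genes tested.

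The chaperones were mixed between the lines. CALR and PDIA6 had lower values in LM2 under both treatments (-0.92 and -0.68 for CALR, -1.0 and -0.71 for PDIA6, log2, limma adjusted p of 0.111 and 0.0965), and HSPA5 higher ones (0.72 and 0.48, limma adjusted p of 0.211). HSP90B1, with 277 and 258 FPKM in the BM1 and LM2 controls, was at 495 and 256 FPKM in the knockdowns. ATF4, XBP1 and PPP1R15A differed little, by 0.07 and 0.13, by 0.01 in each treatment, and by -0.06 and -0.01. Among the 76 pathway genes tested that are not members, 2 were called higher in LM2 (2.31% of all genes). These were TXNDC5 and NUPR1, a stress-induced chromatin factor. TXNDC5 went from 30.3 FPKM in the BM1 control to 11.7 in its knockdown, and from 126 to 85.9 in LM2 (2.39, log2, limma adjusted p of 0.00307). NUPR1 measured 0.117 FPKM in BM1 control cells and 0.336 after knockdown, with 6.69 and 4.73 for the same pair in LM2 (2.44, limma adjusted p of 0.00250). It passed the filter only through LM2, where it is high, so the NUPR1 call is not independent of the filter. Both calls were lost with no filter, when libraries were not paired and when any library was left out. In the lists with no call between lines the largest average differences were 1.04 for VIMP and -0.76 for SYVN1 (degradation), 0.77 for PPP1R15B and -0.55 for MBTPS1 (sensors and cleavage). They were -1.08 for HSPA1A and -0.89 for HSPA1B, near-identical copies whose reads may be split (cytosolic heat shock), and 0.52 for HSPE1 and -0.51 for CLPP (mitochondrial stress).

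In all, 17 of the 36 members overlap another listed gene, 15 of them on the opposite strand and 3 on the same strand. The overlapping gene was abundant for CALR, where CTC-425F1.4 shares 370 bases on the opposite strand and lay between 196 and 350 FPKM, and for HYOU1, where RP11-110I1.6 lay between 44.6 and 57.2 FPKM. PDIA6 shares 1720 bases with ATP6V1C2, which was at 48.7 and 1.24 FPKM in BM1, against 21.5 and 26.1 in LM2, while PDIA6 was at 181 and 166 FPKM and at 90.2 and 101 FPKM. For each of these genes the reads of the pair cannot be told apart where strand was not used in counting. ATF4 has a listed pseudogene, ATF4P3, at 1.18 to 2.57 FPKM. PHGDH, PSAT1, ASNS, ATF4, XBP1, HSPA5 and SEL1L overlap no other listed gene. Of the genes named above from the other lists, PCK2, SEC61A1, SYVN1, MBTPS2, HSPD1, TRAP1, PPP1R15B, MBTPS1, HSPE1 and CLPP overlap another listed gene.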

How the data were processed

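FPKM values were used as deposited, in 1 table with 1 column per library. Per the labels' protocols, the libraries were stranded, paired-end and polyA-selected. STAR 2.5.3a, Cuffdiff 2.2.1 and GRCh37 are named, without roles, per the submitters' processing notes. The sources used here do not give the annotation release or the strand setting. Of 20369 entries, 40 that belong to 3 repeated gene IDs were left out.

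Members were matched by symbol. The members, their roles and all gene lists were chosen with earlier results of these data known. Values were analysed as log2(FPKM + 1), with a mean of at least 1 FPKM required. A limma fit (3.58.1, R 4.3.3) with terms for cell line and treatment over all 4 libraries gave both contrasts, with 1 residual degree of freedom, two-sided p-values, and Benjamini-Hochberg adjustment over 13928 genes at a threshold of 0.05. It was tested on simulated data. Each group had 1 library, so the p-values rest on how far the changes of the 2 lines differ, with a spread moderated over all genes by limma. They do not measure the spread between replicate cultures. With 2 pairs, line and treatment cannot be tested for interaction. The cell line pairs the libraries (control and knockdown come from the same line), and the deviations of libraries of 1 line from their treatment means correlated at 0.545 across genes.

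Depth was inferred from the spacing of low values, of which 36.6% to 45.0% came out whole within 0.02, too few for a count test. No interval for counting error is therefore given. Named genes are all members, and from each other list up to 3 called genes per direction and contrast, or the 2 with the largest average change where none was called. Settings tried were pseudocounts of 0.1 and 0.5, no filter, size factors, quantile normalization, no pairing, each library left out and a 1.5-fold rule. A correction for the trend of changes with GC content and transcript length (GENCODE 29, matched by gene ID for 13723 genes) was added after seeing the data. Coordinates of genes are those of the table, and promoter sequences are from RefSeq.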

Additional observations from a re-analysis of the deposited data

Results flagged for a closer look

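In 2 genes outside the member list the lines moved at least 1.5-fold in opposite directions, and the difference between the lines was not tested, since 4 libraries allow no interaction term. SLC3A2, the heavy chain of the amino acid transporters that SLC7A5 and SLC7A11 belong to, had 171 FPKM in the BM1 control and 268 in the knockdown, and 357 and 207 FPKM in LM2. Its log2 change was 0.64 in BM1 and -0.79 in LM2, so the BM1 value exceeded the LM2 value by 1.431. DNAJB1, a cytosolic heat shock cochaperone, had 165 FPKM in the BM1 control and 96.2 in the knockdown, and 64.0 and 97.0 FPKM in LM2. Its log2 change was -0.77 in BM1 and 0.59 in LM2, a gap of -1.36. DNAJB1 overlaps MIR639 and TECR on the opposite strand, and the reads of these genes cannot be told apart where strand was not used in counting. No member met this description.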

How the results depend on the processing

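The counts of called genes depended on the settings. The 1 member called higher and the 1 called lower over both lines in limma were 0 and 0 with a pseudocount of 0.1, with no filter, with quantile normalization, with no replicate block (no pairing by line) and without any 1 of the 4 libraries (lowest 0, highest 0). With a pseudocount of 0.1, no filter, quantile normalization and no pairing, 7, 10, 10 and 5 members had an unadjusted p below 0.05. Over all genes the counts were 3030 of 13928, 3735 of 20329, 3255 of 13928 and 1548 of 13928. EIF2AK3 and PHGDH had adjusted p-values of 0.0816 and 0.0826 with a pseudocount of 0.1, 0.220 and 0.220 with no filter, 0.0757 and 0.0691 with quantile normalization, and 0.275 and 0.363 with no pairing. Their direction held in each of these. Of the other listed genes, 1 called higher and 2 called lower were 0 and 0 in the same settings. The higher one was 0 also with a pseudocount of 0.5 and without the trend with GC content and length, which left 1 called lower. The 2 called higher in LM2 were 0 with no filter, with no pairing by line and without any 1 library. A fit on 3 libraries also loses the pairing, so the effect of 1 library alone was not tested. No member was called between lines in any setting.

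With a 1.5-fold rule 8 members were higher and 6 lower in the BM1 knockdown, 2 and 8 in the LM2 knockdown, 9 and 3 in LM2 among controls, and 4 and 6 in LM2 among knockdowns. The same rule took 21% and 16.8%, 10.7% and 13.9%, 19.1% and 14.9%, and 12.6% and 15.1% of all genes. Quantile normalization left 1 lower in BM1, 0 lower among controls and 2 lower among knockdowns. Size factors left 1 lower in LM2. Pseudocounts of 0.1 and 0.5 gave 2 lower among controls. Without the trend with GC content and length, 1 was higher and 1 lower in BM1, and 0 higher and 0 lower among controls. The cause of each shift was not tested. The calls over all genes fell from 762 for the knockdown and 606 for the line to 27 and 216 with a pseudocount of 0.1, and to 0 and 0 with no filter. They were 0 and 104 with quantile normalization, 0 and 11 with no pairing, and 427 and 518 without the trend.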

Other observations

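The ATF4 targets that are not members include 8 amino acid transporter genes, a group picked after its values were seen. Of these, 3 had higher values in the knockdown of both lines (SLC38A2, SLC7A11 and SLC7A1), 3 had lower values in both (SLC1A4, SLC1A5 and SLC6A9) and 2 had opposite signs (SLC7A5 and SLC3A2), with SLC38A2 alone called. Over all genes tested the shares were 33% higher in both, 36.2% lower in both and 30.9% opposite. SLC7A11, the light chain of the cystine and glutamate exchanger, had 4.45 FPKM in the BM1 control and 31.5 in the knockdown, and 16.6 and 27.7 FPKM in LM2 (1.64 ± 0.40, log2, SE, limma adjusted p of 0.0525). SLC7A5, the light chain of the large neutral amino acid transporter, had 131 and 322 FPKM in BM1 and 370 and 254 FPKM in LM2, so its values moved in opposite directions. SLC7A5 overlaps RP4-536B24.2 and SLC7A11 overlaps SLC7A11-AS1, each on the opposite strand. SLC1A4, an exchanger of alanine, serine and cysteine, had 6.3 and 3.79 FPKM in BM1 and 4.53 and 1.57 FPKM in LM2 (-0.86 ± 0.26, limma adjusted p of 0.0954). The log2 values in BM1 and LM2 were -0.22 and -0.24 for SLC1A5, -0.08 and -0.60 for SLC6A9, and 0.12 and 0.32 for SLC7A1. SLC1A5 and SLC6A9 also overlap antisense genes. GDF15, a secreted stress cytokine, had 3.26 and 14.8 FPKM in BM1 and 5.68 and 4.68 FPKM in LM2.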
